A study of Mus musculus with 16 samples.

Results

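The nuclear genes for the subunits of the mitochondrial respiratory chain were followed by complex in the whole cochlea of DBA/2J mice. A gene was a member if its symbol began like those of the Nduf, Sdh, Uqcr, Cox4 to Cox8 or Atp5 families and at least 1 array probe carried that symbol alone. Cox6a2, the muscle form of a complex IV subunit, was left out. The rule found 80 of the 18193 genes with such a probe, and each was read from its brightest probe. They divided into 33 genes of complex I, 4 of complex II, 8 of complex III, 18 of complex IV and 17 of complex V. Ndufa4 and Ndufa4l2 were counted with complex IV, where their proteins sit despite their names. No measured value entered the rule.

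The respiratory chain makes most of the ATP of an oxidative cell. Complexes I and II take electrons from NADH and from succinate, complex III passes them on to cytochrome c, and complex IV hands them to oxygen. Complexes I, III and IV pump protons across the inner mitochondrial membrane, and complex V, the ATP synthase, lets the protons back to make ATP. Mitochondrial DNA encodes a few core subunits of every complex except complex II, and the nucleus encodes all others. In the cochlea the stria vascularis and the hair cells are rich in mitochondria, and inherited faults of mitochondrial function are a known cause of hearing loss.

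All 16 arrays came from male DBA/2J mice, an inbred strain that loses hearing early in life, with 1 whole left cochlea per array. Mice of the 4 weeks group (n = 5) had received nothing. Control mice (n = 5) were 12 weeks old and had received 0.1 M sodium bicarbonate, the vehicle, subcutaneously each day for 8 weeks. M+V mice (n = 6) were 12 weeks old and had received L-methionine (MET), a methyl donor, at 500 mg/kg together with valproic acid (VPA), an inhibitor of histone deacetylases, at 300 mg/kg in that vehicle over the same 8 weeks. The comparison of M+V with control therefore asked what the treatment did at 1 age, and that of control with 4 weeks what 8 weeks of age and vehicle did. Since M+V also differed from 4 weeks by age, and both 12-week groups were set against the same 4 weeks arrays, those comparisons are given side by side only. Neither litter nor day of dissection was given, so p-values cover the spread between these mice.

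Values are log2 signals, normalized by the authors to 1 common distribution, so that a difference of 1 is a 2-fold change. Levels of different genes cannot be compared, because each probe binds with its own strength. Every array had a median of 6.90, and 76 of the 80 genes lay at or above it in all 16 arrays, so that none of these 76 entered the tests through a single group. The 4 that did not were Ndufb4 of complex I and Cox4i2, Cox7b2 and Ndufa4l2 of complex IV.

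A few facts of the arrays touched all results. The bacterial bioB spike-in, added to each hybridisation, was high (8.91 to 9.62) in all 4 weeks arrays, control 1, M+V 1 and M+V 2, and low (5.73 to 6.08) in the other 8 arrays. The 4 weeks group therefore cannot be told apart from the high level except through those 3 arrays. M+V 1 stood apart by its erythroid markers, whose mean was 5.73 below the average of the 16 arrays, against 0.28 below to 0.96 above in the other 15. Skeletal muscle markers varied strongly within each group, from 1.43 below to 2.49 above the average. Fewer cells of a type and less RNA per cell cannot be told apart in a whole cochlea. Cochlear markers were present, with Coch at 14.8 to 15.4, Otos at 13.8 to 14.9 and the hair cell gene Myo7a at 7.65 to 8.53. Of 8 measured hair cell markers only 4 passed the filter, and Slc26a5 (0.64 to 5.66), Pou4f3 (2.61 to 5.66), Atoh1 (4.42 to 6.17) and Tmc1 (5.32 to 6.97) did not.

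The levels of all 5 complexes lay close together in M+V-treated and control cochleae. Of the 76 tested subunit genes, 43 were higher (56.6%, against 54.9% of all tested genes) and 33 lower in M+V, with a median difference of 0.0073 on the log2 scale, against 0.018 over all 11450 tested genes. By complex the median difference was 0.0072 for complex I, 0.057 for complex II, 0.10 for complex III, -0.0028 for complex IV and -0.011 for complex V. For 75 of the 76 genes the difference was under 0.25. None passed limma at an adjusted p of 0.05, where 0% of all tested genes passed either. At an unadjusted p under 0.05, 3 subunit genes (Cox7a2l, Ndufb1 and Ndufb11) were on the higher side and 0 on the lower, or 3.95% against 8.83% of all genes (5.09% higher and 3.74% lower). The methods' t-test gave 0 after adjustment, where 0% of all genes passed, and 6 without, or 7.89% against 6.47%.

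On the brightest probes the intervals of the differences were narrow. They cover the spread between arrays on a single probe per gene, not the choice of probe. Of the 80 genes, 67 lay in the top 5% of probes. For 18 the brightest probe can bind several transcripts. The 95% confidence interval of the difference stayed within 0.5 log2 units of 0 for 72 of the 76 genes and within a 2-fold change for all 76. The widest was that of Cox7a1 (-0.57 to 0.44), and the one that reached farthest from 0 was that of Atp5md (-0.67 to 0.26), whose values spread from 10.5 to 11.9 among the control cochleae alone. On these probes a change of 1.5-fold or more lay outside the interval of 73 genes.

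**Figure D1:**
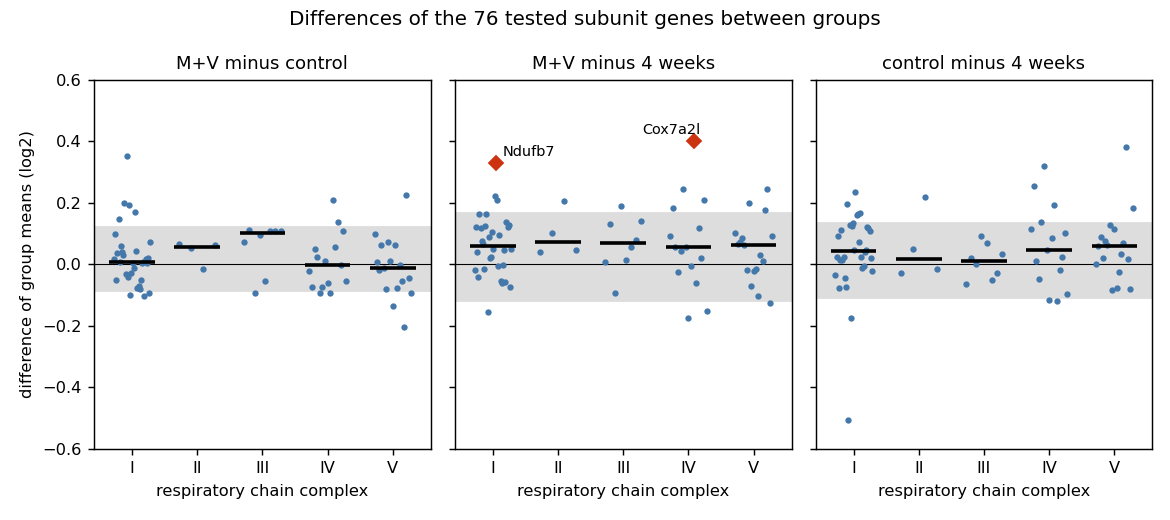
Differences of group means on the log2 scale (vertical axis) for the 76 tested subunit genes by complex (horizontal axis), in 3 comparisons. Each point is 1 gene, thick bars are medians, the grey band holds the middle 50% of all 11450 tested genes and red diamonds are genes with a limma adjusted p under 0.05, Cox7a2l at 0.40 and Ndufb7 at 0.33.

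Against the 4 weeks cochleae the M+V-treated cochleae had 2 subunit genes that passed limma, Cox7a2l of complex IV and Ndufb7 of complex I, both higher. These are 2.63% of the 76, against 4.93% of all tested genes (2.52% higher and 2.41% lower). Without M+V 1 the same 2 genes passed. Neutrophil markers, all 9 of them tested, differed in the same comparison, with 4 called higher and a median of 0.61. In control against 4 weeks 1.45% of all tested genes were called (0.402% higher). There 1 neutrophil marker was called higher, with a median of 0.46 over these 9 markers. Their mean ran from 0.63 to 0.088 below the average of the 16 arrays at 4 weeks, from 0.048 below to 0.24 above in control and from 0.21 below to 0.37 above in M+V. Of 8 fibrocyte and supporting cell markers, 7 were below 4 weeks in M+V (median -0.22) and 8 in control (median -0.23), with 0 called. The part of these cells in the subunit values was not tested. At an unadjusted p under 0.05 there were 7, all higher, or 9.21% against 22.1% of all genes (12.9% higher and 9.21% lower). The methods' t-test gave 1, Cox7a2l, after adjustment (1.25% of all genes) and 11 without (14.5%, against 19.3%). In all, 54 subunit genes lay above 0 and 22 below, or 71.1% above against 55.0% of all genes, and the medians of the complexes ran only from 0.056 for complex IV to 0.074 for complex II. The median over all tested genes was 0.025, and that over 43 cytosolic ribosomal protein genes was 0.073.

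Between control and 4 weeks cochleae 0 of the 76 passed limma, against 1.45% of all genes (0.402% higher and 1.05% lower), and the methods' t-test also gave 0, against 0.969%. Without adjustment 9 passed limma, 7 higher and 2 lower, or 11.8% against 13.9% of all genes (6.79% higher and 7.11% lower), and 12 passed the methods' t-test (15.8%, against 17.3%). Again more genes lay above 0 (53, or 69.7%) than below (23), against 52.0% above over all genes. Complex medians were 0.042 for complex I, 0.016 for complex II, 0.010 for complex III, 0.046 for complex IV and 0.059 for complex V, beside 0.0093 over all tested genes. The shift was small next to the spread of single arrays.

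Single arrays differed by more than the group means did. When each gene was set against its own mean over the 16 arrays and averaged within a complex, control 1 had the highest mean of all arrays for complex I (0.22), complex III (0.18) and complex V (0.16), and M+V 3 the highest for complex II (0.22) and complex IV (0.17). Within the 4 weeks group replicate 1 was the highest and replicate 4 the lowest for every complex. The complexes did not always go together, since control 1 was at -0.023 for complex II, and M+V 1 at 0.15 for complex III but -0.086 for complex IV. The group means of each complex overlapped within their SD. Averaged over all 76 genes, the mean was -0.037 ± 0.065 at 4 weeks (SD, n = 5), 0.0072 ± 0.11 in control (SD, n = 5) and 0.025 ± 0.064 in M+V (SD, n = 6).

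**Figure D2:**
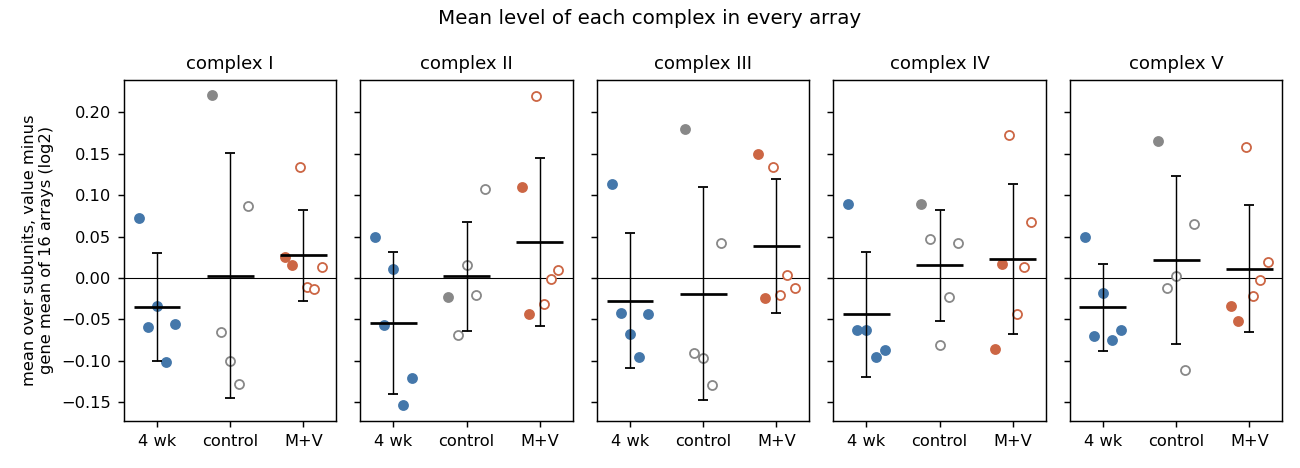
Mean over the tested subunit genes of each complex (vertical axis, log2 value minus the gene's mean over 16 arrays) for every array, by group. Filled points are arrays with a high bioB spike-in and open points those with a low one, bars are group means with their SD, and control 1 stands highest for complexes I, III and V.

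Control 1 was also the only control array with a high bioB spike-in. It had the largest difference between 3' and 5' Gapdh probes among the control arrays (0.19, against -0.17 to 0.04). The other 12-week arrays with high bioB were alike in this, M+V 1 at 0.19 and M+V 2 at 0.16. In the 3 high arrays of the 12-week groups the medians of M+V against control turned to -0.19 for complex I, -0.13 for complex III, -0.12 for complex IV and -0.20 for complex V, while complex II stayed at 0.056. In the 8 low arrays, 4 of each group, they were 0.071 for complex I, 0.056 for complex II, 0.12 for complex III, 0.036 for complex IV and 0.053 for complex V. Against 4 weeks, the high arrays alone gave control medians of 0.28, -0.017, 0.23, 0.13 and 0.21 for complexes I to V, each resting on control 1. Without control 1 the medians of control against 4 weeks were -0.019 for complex I, -0.0066 for complex II, -0.043 for complex III, -0.017 for complex IV and 0.031 for complex V. Leaving out control 1 thus turned the sign for complexes I to IV. For complexes II and III other single arrays did so too, with -0.010 for complex II and -0.0012 for complex III without 4 weeks replicate 4, and -0.00067 and -0.0065 for complex II without 4 weeks replicate 5 or control replicate 5.

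**Figure D3:**
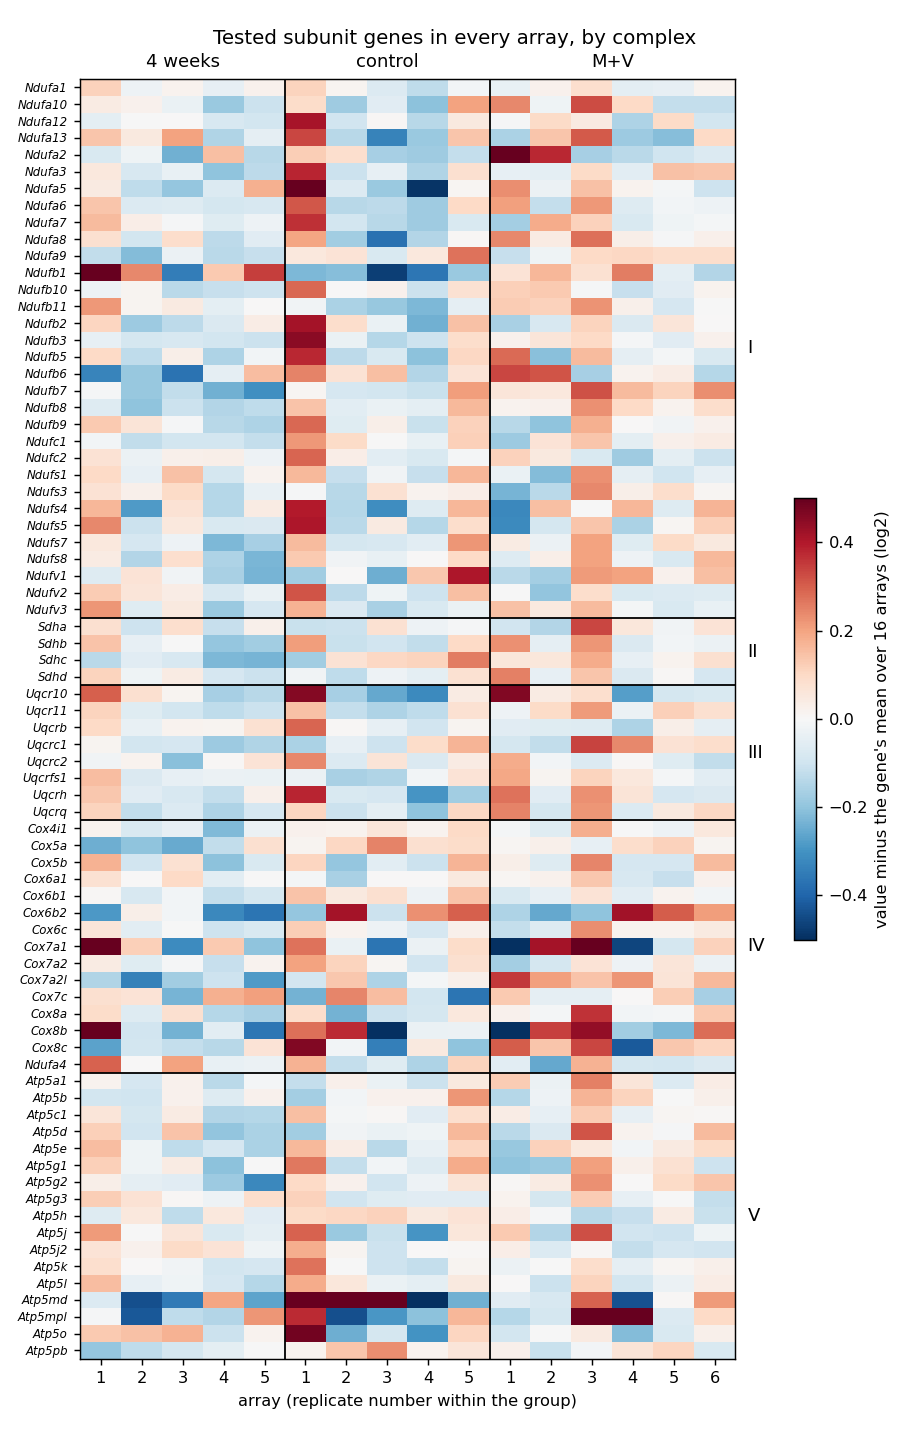
All 76 tested subunit genes (rows, by complex) in the 16 arrays (columns, by group and replicate number), coloured by the log2 value minus the gene's mean over 16 arrays, with the darkest colours at 0.5 or beyond. Columns differ more than groups do: control 1 and M+V 3 are red across most genes.

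Cox7a2l showed the clearest difference of any subunit gene. Its protein, also called SCAFI, is a relative of the complex IV subunit Cox7a that joins complexes III and IV into supercomplexes. In the 4 weeks cochleae the brightest probe read 12.58, 12.39, 12.55, 12.62 and 12.44, in the control cochleae 12.63, 12.86, 12.57, 12.72 and 12.75, and in the M+V-treated cochleae 13.08, 12.93, 12.87, 12.95, 12.79 and 12.89. Every M+V array lay above every 4 weeks array, and the control arrays overlapped both groups. The difference of M+V from 4 weeks was 0.40 (SE 0.078, adjusted p = 0.00804), that of M+V from control 0.21 (SE 0.078, adjusted p = 0.458) and that of control from 4 weeks 0.19 (SE 0.081, adjusted p = 0.301).

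The second brightest Cox7a2l probe gave 0.21 for M+V against 4 weeks (adjusted p = 0.131), so the call was lost on it. The dimmest probe gave 0.48 (adjusted p = 0.00437). With the bioB level as a block the difference was 0.43 (adjusted p = 0.0183), and in the high arrays alone, where only M+V 1 and M+V 2 stand for the treatment, 0.49 (adjusted p = 0.0562).

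Ndufb7, an accessory subunit of the membrane arm of complex I, was the other. It read 12.71, 12.53, 12.59, 12.48 and 12.41 at 4 weeks, 12.73, 12.63, 12.63, 12.61 and 12.92 in control and 12.78, 12.77, 13.03, 12.88, 12.83 and 12.95 in M+V. The M+V and 4 weeks arrays did not overlap, and 4 of the 5 control arrays lay below all M+V arrays. It was 0.33 higher in M+V than at 4 weeks (SE 0.084, adjusted p = 0.0319) and 0.17 higher than in control (SE 0.084, adjusted p = 0.529). The call was fragile. It was lost with the bioB level as a block (0.27, adjusted p = 0.112), on the gene's other probe (0.18, adjusted p = 0.232) and without any 1 of 4 weeks replicates 2, 4 or 5 or M+V replicates 4, 5 or 6, where the difference stayed between 0.30 and 0.37.

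Groups did not overlap for 4 subunit genes between M+V and 4 weeks, or 5.26% against 5.08% of all genes. These were Cox7a2l, Ndufb7, Ndufb8 and Sdhc. Between M+V and control there were 2 (Ndufb1 and Atp5h), or 2.63% against 0.9%, and between control and 4 weeks 2 (Ndufb8 and Atp5pb), or 2.63% against 5.93%.

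In complex I, 32 of the 33 genes were tested. The N module, which oxidises NADH, had 8 members with medians of 0.014 for M+V against control and 0.044 for M+V against 4 weeks. In these comparisons 0 of them passed limma, where 0% and 4.93% of all tested genes did. The Q module, which passes electrons to ubiquinone, had 4 members with medians of 0.010 and 0.097, again with 0 called. Within M+V against control the genes with the lowest moderated t were Ndufv2 at -0.095 (SE 0.088) and Ndufc2 at -0.080 (SE 0.080), and those with the highest were Ndufb1 and Ndufb11.

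Ndufb1, a small subunit of the membrane arm, had the largest difference of any tested subunit gene between control and 4 weeks. It read 8.42, 7.96, 7.37, 7.85 and 8.06 at 4 weeks, 7.49, 7.50, 7.25, 7.35 and 7.53 in control and 7.79, 7.88, 7.79, 7.97, 7.67 and 7.57 in M+V. All M+V arrays lay above all control arrays, by 0.35 on average (SE 0.14, adjusted p = 0.465), and 4 of the 5 arrays at 4 weeks lay above all controls. The difference of control from 4 weeks was -0.51 (SE 0.15, adjusted p = 0.110), and without 4 weeks replicate 3 it was -0.65 (adjusted p = 0.0177). The difference of control from 4 weeks was -0.44 with the bioB block. It was also -0.44 in the high arrays alone, where control 1 is the only control array. The gene had 1 probe.

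Ndufb11, whose human form is linked to inherited complex I deficiency, was also lowest on average in control, with smaller differences. It read 13.89, 13.69, 13.72, 13.63 and 13.68 at 4 weeks, 13.66, 13.52, 13.49, 13.45 and 13.63 in control and 13.80, 13.79, 13.90, 13.70, 13.59 and 13.67 in M+V. The groups overlapped, with M+V 0.19 above control (SE 0.078, adjusted p = 0.466) and control at -0.17 against 4 weeks (SE 0.081, adjusted p = 0.357). Another probe gave 0.18 and -0.10 for these differences and the third 0.0097 and -0.074.

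Ndufb8 and Ndufa9, of the membrane and matrix arms, had the highest moderated t of complex I in control against 4 weeks. Ndufb8 was at 12.26 to 12.40 at 4 weeks, 12.41 to 12.63 in control and 12.48 to 12.69 in M+V, so that neither 12-week group overlapped the younger one. Its differences from 4 weeks were 0.16 for control (adjusted p = 0.343) and 0.21 for M+V (adjusted p = 0.101). The dimmer Ndufb8 probe, at group means of 6.84 to 7.39, gave -0.55 for control against 4 weeks (adjusted p = 0.0948), the opposite direction. In M+V against 4 weeks the dimmer probe also went the opposite way, with 0.53 between the Ndufb8 probes. Ndufa9 was 0.20 higher in control than at 4 weeks (SE 0.080, adjusted p = 0.273).

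Ndufa2 was 0.15 higher in M+V than in control (SE 0.14), but this came from M+V 1 (13.05) and M+V 2 (12.75), the M+V arrays with high bioB, since the other 4 lay at 12.21 to 12.31. With the bioB level as a block, Cox7a2l, Ndufa2 and Ndufb6 were the 3 genes called in M+V against 4 weeks. The share of all tested genes called with this block was not taken, so the count has no background beside it. On its only single-symbol probe Ndufb4 read 5.09 to 6.20 over the 16 arrays, below the array median in each, and its level was not tested. The array also reads Ndufb4 together with Ndufb4b and Ndufb4c, which was not analysed here, so the low values hold for that probe only.

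**Figure D4:**
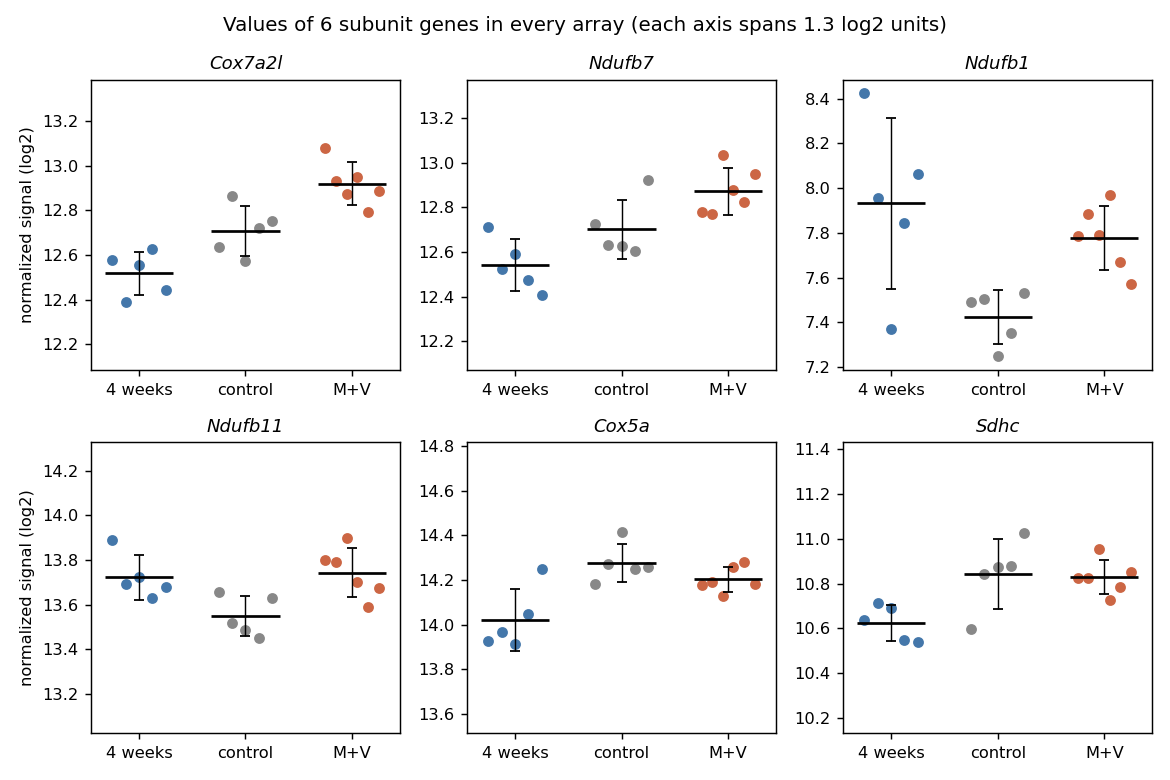
Normalized log2 signals (vertical axes, each spanning 1.3 log2 units) of 6 subunit genes in every array, by group, with group means and SD. Cox7a2l and Ndufb7 are highest in M+V, Ndufb1 and Ndufb11 lowest in control, and Cox5a and Sdhc lowest at 4 weeks.

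Complex II is succinate dehydrogenase, which also serves the tricarboxylic acid cycle, and its 4 genes differed little. Sdha, the flavoprotein that binds succinate, was at 12.63 to 12.83 at 4 weeks, 12.64 to 12.82 in control and 12.60 to 13.08 in M+V. Sdhb, the iron-sulfur subunit, differed by 0.053 between M+V and control (SE 0.094), and the membrane anchor Sdhd by 0.062 (SE 0.079). The groups of these genes overlapped in all comparisons.

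Sdhc, the other membrane anchor, read 10.64, 10.71, 10.69, 10.55 and 10.54 at 4 weeks, 10.60, 10.84, 10.87, 10.88 and 11.02 in control and 10.83, 10.83, 10.96, 10.73, 10.79 and 10.85 in M+V. Every M+V array, and every control array but 1, lay above all 4 weeks arrays. The differences from 4 weeks were 0.20 for M+V (SE 0.080, adjusted p = 0.145) and 0.22 for control (SE 0.084, adjusted p = 0.245), neither past the test. In the high arrays alone the latter was -0.029, since the exception was control 1.

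Complex III had the largest median between M+V and control (0.10), with 6 of its 8 genes above 0. The 6 lay close together, from 0.073 for Uqcr10 to 0.11 for Uqcr11, Uqcrfs1, Uqcrh and Uqcrq, and Uqcrb (-0.094, SE 0.076) and the core protein Uqcrc2 (-0.053, SE 0.082) were below. None passed limma, with standard errors of 0.075 to 0.15. Uqcr11, a small accessory subunit, was at 12.25 to 12.49 at 4 weeks, 12.22 to 12.53 in control and 12.35 to 12.59 in M+V. Uqcrfs1, the Rieske iron-sulfur protein, was at 12.42 to 12.64, 12.33 to 12.56 and 12.44 to 12.68 in that order. The ranges of both genes overlapped across all groups. Control 1 was the highest of the 5 control arrays in the mean of complex III, and the median of M+V against control without it was 0.13.

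In complex IV, 15 of the 18 genes were tested. Cox5a, a subunit on the matrix side, had the highest moderated t of the complex in control against 4 weeks. It read 13.93, 13.97, 13.92, 14.05 and 14.25 at 4 weeks, 14.18, 14.27, 14.42, 14.25 and 14.26 in control and 14.18, 14.19, 14.13, 14.26, 14.28 and 14.18 in M+V. Only 4 weeks replicate 5 reached into the range of the 12-week arrays. Control was 0.26 above 4 weeks (SE 0.079, adjusted p = 0.142), and 2 other probes gave 0.12 and 0.31. With limma array weights the call was made (0.28, adjusted p = 0.0341).

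Other complex IV genes stayed closer. Cox6b1, on the outer face of the complex, was -0.094 in M+V against control (SE 0.064) and Cox7a2 was -0.092 (SE 0.074), while Cox8a was at 0.14 (SE 0.091). Ndufa4, a late-joining subunit, was at -0.097 in control against 4 weeks (SE 0.099) and Cox7c at -0.12 (SE 0.12). Their groups overlapped in every comparison.

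Several complex IV subunits exist in forms for different tissues. The common forms Cox4i1 (13.96 to 14.36), Cox6a1 (14.56 to 14.86), Cox6b1 (14.04 to 14.30) and Cox7a2 (14.10 to 14.47) varied little over the 16 arrays, and Cox8a ran from 12.81 to 13.41. The heart and muscle forms Cox7a1 (8.62 to 10.33) and Cox8b (9.82 to 11.12) spread over more than 1 log2 unit. Both had their highest value in 4 weeks replicate 1 and their lowest in M+V 1, the array with low erythroid markers. The 3 arrays with the most skeletal muscle signal were 4 weeks replicate 5 and control replicates 4 and 5 (2.38 to 2.49 above average). They had Cox8b at 10.09 to 10.42 and Cox7a1 at 9.36 to 9.65. The part of any cell type in the spread of these forms was not tested. Between groups neither form passed a test, with Cox7a1 at -0.061 (SE 0.24) and Cox8b at -0.0028 (SE 0.22) in M+V against control.

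The lung form Cox4i2 (3.02 to 6.13) and the testis form Cox7b2 (0.84 to 5.83) were below the array median in all arrays. The testis forms Cox6b2 (8.73 to 9.51) and Cox8c (7.19 to 8.08) were tested and gave -0.076 (SE 0.15) and 0.11 (SE 0.14) in M+V against control. Ndufa4l2, a hypoxia-induced relative of Ndufa4, read 2.10, 3.39, 4.87, 5.09, 4.17 and 3.61 in M+V and 5.65, 5.22, 5.72, 5.14 and 6.59 in control. These groups did not overlap, but the 4 weeks values ran from 3.30 to 6.21 and all 16 lay under the median of 6.90, so that no test was made.

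All 17 genes of complex V were tested. Atp5h, the d subunit of the peripheral stalk, read 14.13, 14.14, 14.15, 14.08 and 14.10 in control and 14.07, 14.03, 13.90, 13.92, 14.08 and 13.92 in M+V. The groups just missed each other, with a difference of -0.13 (SE 0.067, adjusted p = 0.530), and the 4 weeks arrays (13.91 to 14.09) lay over both. Atp5pb, the b subunit of the same stalk, was at 13.79 to 13.98 at 4 weeks and 14.00 to 14.21 in control, 0.18 higher (SE 0.075, adjusted p = 0.274), with M+V at 13.87 to 14.09.

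The small proteins of the ATP synthase dimer had the widest spread. Atp5md ran from 10.69 to 11.33 at 4 weeks, from 10.49 to 11.91 in control and from 10.70 to 11.43 in M+V, and Atp5mpl from 11.34 to 11.99, from 11.33 to 12.14 and from 11.63 to 12.33. For Atp5mpl the difference of M+V from control was 0.23 (SE 0.17, adjusted p = 0.683), and M+V replicates 3 and 4 (12.28 and 12.33) were the highest. The catalytic core was steadier, with Atp5a1 at 0.099 (SE 0.074) and Atp5b at 0.0073 (SE 0.080) in M+V against control. The c subunit of the rotor is encoded by 3 genes for the same mature protein, and they gave -0.082 for Atp5g1 (SE 0.098), 0.074 for Atp5g2 (SE 0.079) and 0.012 for Atp5g3 (SE 0.070).

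Probes of 1 gene did not always tell the same story, which limits what differences of this size can carry. Of the 41 genes with more than 1 tested probe, 21 had all probes on the same side of 0 in M+V against control, 23 in M+V against 4 weeks and 29 in control against 4 weeks. The median range between the probes of a gene was 0.10, 0.13 and 0.11, which is more than the median differences of the complexes in M+V against 4 weeks and in control against 4 weeks. The widest gaps were 0.66 for Ndufs8 in M+V against control and 0.71 for Ndufb8 in control against 4 weeks.

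The only mitochondrially encoded subunit with a single-symbol probe was lower in M+V than at 4 weeks. This was ND5, a proton-pumping core subunit of complex I, which read 14.63, 14.41, 14.31, 14.12 and 14.06 at 4 weeks, 14.97, 14.22, 14.38, 13.94 and 14.00 in control and 13.68, 13.26, 13.91, 13.44, 13.55 and 13.60 in M+V. Every M+V array lay below every array of the other groups. The difference from 4 weeks was -0.73 (SE 0.17, adjusted p = 0.0199) and that from control -0.73 (SE 0.17, adjusted p = 0.365), while control differed from 4 weeks by -0.0048 (SE 0.18). With the bioB block the difference from 4 weeks was -0.59 (adjusted p = 0.0943) and without 4 weeks replicate 1 it was -0.65 (adjusted p = 0.0578). Neuron markers were lower in M+V too, with all 8 below control by a median of 0.44. So were all 14 skeletal muscle markers (median -1.02), of which 3 passed the filter (median -0.66). Lower as well were 8 of 10 markers of oligodendrocytes and astrocytes (median -0.33) and all 5 measured erythroid markers (median -1.47). In the erythroid mean M+V 1 lay 5.73 below average, and the other M+V arrays from 0.28 below to 0.58 above. Of 6 adipocyte and brown fat markers 5 were lower (median -0.20). The other lists lay mostly above control. Higher were 7 of 8 stria vascularis markers (median 0.13), 8 of 9 neutrophil markers (0.15), 6 of 8 fibrocyte and supporting cell markers (0.048) and 5 of 8 hair cell markers (0.048). In each list 0 were called, where 0% of all tested genes were. At an unadjusted limma p under 0.05, 2 neuron, 3 oligodendrocyte and astrocyte, 1 muscle and 0 erythroid markers were lower. Against 4 weeks the medians were -0.42 for neurons, -0.47 for skeletal muscle, -1.38 for erythroid cells and -0.38 for oligodendrocytes and astrocytes. Those of stria vascularis, hair cells and fat were 0.12, 0.063 and 0.21. The part of such cells in the ND5 values was not tested.

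Nuclear genes of the chain that the symbol rule leaves out gave 0 calls among the 4 measured. Of all tested genes, 0% were called in M+V against control, 4.93% in M+V against 4 weeks and 1.45% in control against 4 weeks. Atpif1, the inhibitor of ATP synthase, was at 12.66 to 12.94 at 4 weeks, 12.77 to 13.10 in control and 12.22 to 12.80 in M+V, or -0.37 in M+V against control (SE 0.11, adjusted p = 0.394). Its M+V and control ranges touched only through M+V 2. Cyc1, the cytochrome of complex III, was at 0.18 in M+V against 4 weeks (SE 0.086, adjusted p = 0.227), and cytochrome c (Cycs) at -0.14 in M+V against control (SE 0.093).

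Factors that assemble the complexes gave no calls. Of 13 for complex I and 27 for the other complexes, 0 passed limma in any comparison. Of all tested genes, 0% passed in M+V against control, 4.93% in M+V against 4 weeks and 1.45% in control against 4 weeks. With so few factors, 0 calls lie near these shares. Their medians in M+V against control were 0.082 for complex I and -0.0091 for the other complexes. The largest difference with age was that of Acad9, a complex I assembly factor (0.40 in control against 4 weeks, SE 0.15, adjusted p = 0.220). Lrpprc, which stabilises mitochondrial messenger RNAs, was at 0.29 in the same comparison (SE 0.091, adjusted p = 0.148).

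Among 12 regulators of mitochondrial biogenesis 1 passed, in M+V against 4 weeks, where 4.93% of all tested genes did. Esrra, the nuclear receptor ERR alpha that drives many respiratory chain genes, read 9.26, 9.01, 9.19, 8.80 and 9.05 at 4 weeks, 9.28, 9.76, 9.92, 9.67 and 9.89 in control and 9.21, 9.51, 10.12, 9.49, 9.82 and 9.49 in M+V. It was 0.55 higher in M+V than at 4 weeks (SE 0.15, adjusted p = 0.0467), and the difference of control from 4 weeks was 0.64 (SE 0.16, adjusted p = 0.0565). The lowest value of either 12-week group came from control 1 and M+V 1, both with high bioB. With the bioB block the difference of M+V from 4 weeks was 0.26 (adjusted p = 0.310), and a dimmer probe gave 0.094. The call was also lost without any 1 array other than control replicate 1 or M+V replicate 1, with the difference then between 0.44 and 0.60. Ppargc1a, the coactivator PGC-1 alpha, was at -0.33 in M+V against control (SE 0.17, adjusted p = 0.550).

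Of 15 enzymes of the tricarboxylic acid cycle, which feeds the chain, 1 passed, again in M+V against 4 weeks with its 4.93% of all tested genes. Suclg2, a subunit of succinyl-CoA ligase, was at 10.56 to 10.90 at 4 weeks, 10.96 to 11.08 in control and 10.91 to 11.28 in M+V, so that neither 12-week group overlapped the young one. It was 0.30 higher in M+V than at 4 weeks (SE 0.084, adjusted p = 0.0465), a call that was lost with the bioB block (0.28, adjusted p = 0.116) and without any 1 array other than 4 weeks replicate 3 or M+V replicates 1, 3 or 4 (then 0.25 to 0.32). Control differed from 4 weeks by 0.25 (adjusted p = 0.198). Mdh2 was at 0.21 in M+V against control (SE 0.084, adjusted p = 0.466).

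What the subunit genes share beyond their names can be read from their promoters. RefSeq promoters of GRCm38.p6, from 250 bases before to 50 after the start of transcription, were matched for 66 of the 80 genes. Letters known for nuclear regulators of the chain were searched on both strands. The NRF1 motif (GCGC, any base, TGCGC) was found in 22.7% of the subunit genes and in 5.19% of all 27025 genes, the ETS core CCGGAAG, bound by GABPA (also called NRF2), in 25.8% and 9.93%, the YY1 motif AAGATGGC in 13.6% and 3.19%, and the ERR site AAGGTCA in 12.1% and 5.38%. The general GC box GGGCGG (42.4% and 38.2%) and CCAAT box CCAAT (42.4% and 41.1%) were about as common in both. At least 1 of the first 4 motifs was held by 37 of the 66 promoters, and at least 2 by 10.

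**Figure D5:**
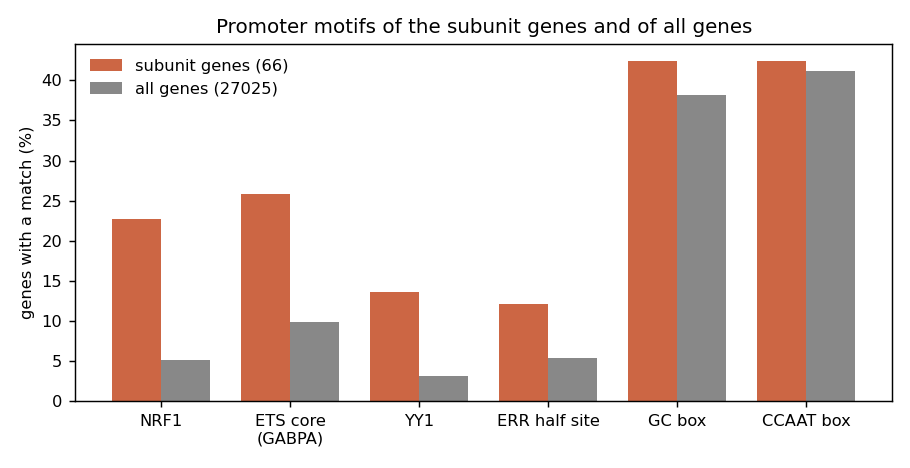
Share of genes (vertical axis, %) with at least 1 match to each of 6 motifs in the 300 bases of the promoter, for the 66 matched subunit genes and for all 27025 genes. Bars are highest above those of all genes for NRF1 (22.7% and 5.19%), and nearly equal for the CCAAT box (42.4% and 41.1%).

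The motifs were spread unevenly over the complexes. Complex V promoters held the NRF1 motif in 6 of 15 and the ETS core in 6 of 15, while those of complex IV held them in 1 and 3 of 13. YY1 matches occurred in 6 promoters of complex I and 3 of complex V and in 0 of the other complexes, and ERR matches in 3 of complex I, 1 of complex II and 4 of complex V. The counts are descriptions of letters in a fixed window, and a match is not a bound site.

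Median differences were at most 0.12 for genes with and without a motif. In M+V against control the median was 0.032 over the 14 tested genes with the NRF1 motif and 0.0052 over the 50 without, and 0.0031 over the 17 with the ETS core and 0.0074 over the 47 without. For the ERR motif, the site of receptors such as Esrra, the 7 tested genes with a match had a median of 0.046 in control against 4 weeks, and the 57 without one 0.025. The widest gap was that of the YY1 motif in control against 4 weeks, with a median of 0.12 over 9 genes with a match and 0.024 over 55 without, and in M+V against 4 weeks these were 0.094 and 0.049.

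The promoters of the 2 called genes and of Sdhd, which like Atp5k held 3 of the 4 regulator motifs, are shown 5′ to 3′ on the strand of the gene, with the matches in capitals. Cox7a2l (chr17:83514284-83514583, minus strand) has 2 GC boxes, 22 bases before and 13 after the start, and none of the 4 regulator motifs. Ndufb7 (chr8:83566508-83566807, plus strand) has 1 ETS core 20 bases before the start. Sdhd (chr9:50603800-50604099, minus strand) has, in order, an NRF1 motif, an ETS core, a GC box and an ERR site, all but the GC box on the opposite strand, and its level differed by 0.062 between M+V and control.
Cox7a2l: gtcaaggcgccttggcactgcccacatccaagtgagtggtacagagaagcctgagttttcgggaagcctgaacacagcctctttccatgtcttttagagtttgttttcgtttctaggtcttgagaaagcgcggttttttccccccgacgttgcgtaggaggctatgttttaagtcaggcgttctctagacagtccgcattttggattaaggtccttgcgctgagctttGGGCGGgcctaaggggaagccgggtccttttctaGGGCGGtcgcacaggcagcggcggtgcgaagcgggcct
Ndufb7: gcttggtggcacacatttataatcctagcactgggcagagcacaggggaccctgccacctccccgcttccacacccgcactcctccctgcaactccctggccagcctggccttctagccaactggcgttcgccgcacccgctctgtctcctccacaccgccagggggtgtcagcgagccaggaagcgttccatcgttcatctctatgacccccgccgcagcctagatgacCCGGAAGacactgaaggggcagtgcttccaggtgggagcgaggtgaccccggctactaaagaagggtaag
Sdhd: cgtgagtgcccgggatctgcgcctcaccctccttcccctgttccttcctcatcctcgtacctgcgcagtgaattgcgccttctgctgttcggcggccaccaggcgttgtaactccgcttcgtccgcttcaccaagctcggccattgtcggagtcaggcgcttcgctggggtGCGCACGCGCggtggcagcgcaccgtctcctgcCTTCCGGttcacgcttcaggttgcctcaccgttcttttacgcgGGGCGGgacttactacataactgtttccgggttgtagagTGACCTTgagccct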

How the data were processed

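RNA of 16 whole cochleae had been hybridised to Affymetrix mouse genome arrays. The authors extracted signals with GCOS and MAS5 (versions not given in the sources used here) and quantile-normalized them in R; the deposited values are log2 signals, which ran from -3.31 to 15.4, and signals under 1 (0.869% of values) were set to 1 here. Of 45101 probes, 34958 carry 1 gene symbol, and a gene was read from the brightest of these, by the mean over all arrays. In place of the present calls of the methods, a probe entered the tests if all arrays of some group had it at or above their median (21391 probes did). limma 3.58.1 (R 4.3.3) fitted a model with 3 group means, adjusted by Benjamini-Hochberg over all tested probes (two-sided, threshold 0.05); it was tested on simulated data. The t-test of the methods was applied to these probes too.

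The members and lists were chosen with earlier results of these data known, and counts and medians over them carry no test. Genes named were those past the threshold, the 2 highest and 2 lowest moderated t of each complex in M+V against control and in control against 4 weeks, the tissue forms, and the called or top 2 genes of each pathway list. Ndufa2, Ndufb6, the non-overlapping genes and those not tested were named after their values were seen. Marker lists covered muscle, glia, neurons, hair cells, stria, fibrocytes, fat, erythroid cells and neutrophils. The probes that carry several symbols were not analysed here. Alternatives are given under the dependence on processing. With 5 or 6 arrays a group, their number sets the precision.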

Additional observations from a re-analysis of the deposited data

Results flagged for a closer look

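A value was singled out where the highest or lowest array of a group of 5 or 6 lay far from the rest (Dixon's criterion at 95%), and chance alone marks about 1 in 20 groups. Of 108 groups checked, 8 were marked. In the means of the complexes, M+V 3 was high for complex I (0.13, next highest 0.025) and complex V (0.16, next 0.020), and 4 weeks replicate 1 for complex III (0.11, next -0.042) and complex IV (0.089, next -0.062). Single genes were Uqcrb (14.85, next 14.58) and Atp5g3 (14.37, next 14.19) in control 1 and Uqcr11 (12.49, next 12.32) and Uqcrfs1 (12.64, next 12.46) in 4 weeks replicate 1. All 8 were on the high side, and their cause was not tested.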

How the results depend on the processing

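In M+V against control 0 subunit genes were called under all 31 alternatives. In M+V against 4 weeks the count was 2, and it was 1 (Cox7a2l) with no filter, the methods' t-test, only the 2 groups compared and the mean over a gene's probes, 0 in the high bioB arrays alone and on second brightest probes, and 1 to 2 when single arrays were left out. The labels' replicate numbers do not pair the arrays (median correlation of residuals 0.0126 in 15 same-numbered pairs, 6 over 0.1), and with the replicate block 1 gene was called. In control against 4 weeks 1 was called with array weights (Cox5a), and 0 to 1 without single arrays. Medians of M+V against control in the high arrays were -0.194, -0.132, -0.124 and -0.200 for complexes I, III, IV and V, and on second probes 0.160 for II and -0.030 for III. Those of M+V against 4 weeks were 0.139 for IV and -0.034 for V on second probes and -0.017 for V in the high arrays, and those of control against 4 weeks in the high arrays 0.284, 0.229, 0.131 and 0.210 for I, III, IV and V. Why these values moved was not tested. Apart from the methods' t-test, no share of all tested genes called was taken for the alternatives.

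Of 1472 single-gene values under alternatives, 39 changed sign, all of uncalled genes. For M+V against control on second probes these were Ndufv2 (0.059), Ndufc2 (0.011), Sdhc (0.16), Sdha (-0.029), Uqcrc2 (0.014) and Cox6b1 (0.0010), with mean probes Ndufv2 (0.018), Sdhc (0.073) and Atp5a1 (-0.00086), in the high arrays Sdhc (0.23), Sdhb (-0.12), Sdha (-0.011), Uqcr11 (-0.11), Cox8a (-0.082) and Atp5mpl (-0.49), and for Sdhc also with the bioB block (0.0016), the muscle covariate (0.00041) and without single arrays (-0.076 to 0.031). For control against 4 weeks they were Ndufb8 with mean (-0.19) and second probes (-0.55), Uqcrc2 on second probes (-0.035), Sdha with array weights (0.0026), Uqcr10 with the Gapdh covariate (0.0023), with the bioB block Sdhd (0.042), Uqcr10 (0.30), Uqcrc1 (-0.11) and Atp5j (0.035), in the high arrays Sdhc (-0.029), Uqcr10 (0.44), Uqcrc1 (-0.058), Ndufa4 (0.086), Atp5g3 (0.064) and Atp5j (0.27), and without single arrays Sdhd (-0.042 to 0.015), Sdhb (-0.0048 to 0.097) and Uqcr10 (-0.19 to 0.0044).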
